A study of Mus musculus with 9 samples.

Results

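The integrins and leukocyte adhesion molecules described here are 32 genes of 36346 in the deposited mouse brain table. They were chosen by symbol, as 25 integrin chains, 4 adhesion molecules of the immunoglobulin superfamily, 2 selectins and 1 selectin ligand, and all 32 were found. Brain RNA of C57BL/6 wild-type mice was sequenced 72 hours after intracerebral haemorrhage with pterostilbene (ICH+PTE), after intracerebral haemorrhage alone (ICH), or after a control procedure (sham), with 3 mice and 3 libraries in each group. Pterostilbene is a plant stilbenoid related to resveratrol. The labels hold no group given pterostilbene without haemorrhage, and the dose and route of pterostilbene, the way the haemorrhage was made, the hemisphere and region sampled, and the age and sex of the mice were not given in the sources used here. Levels are FPKM, fragments per kilobase of transcript scaled to the library's mapped total, and differences are of log2(FPKM + 0.5) ± standard error, with an adjusted p from limma over all 15376 tested genes and a call at an adjusted p under 0.05.

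Integrins are receptors made of 1 alpha and 1 beta chain that tie cells to matrix or to other cells, and the chains a cell makes decide what it can bind. Leukocytes leave blood in steps: selectins of the vessel wall catch and slow them by way of sialylated ligands, then activated integrins of the leukocyte, chiefly those with the beta2 chain or the alpha4 chain, hold on to ICAM and VCAM molecules of the endothelium. In the brain, the alpha M beta2 integrin is also carried by resident microglia, the alpha V and beta1 integrins tie endothelium, pericytes and astrocyte endfeet to the vessel's basement membrane, and the telencephalic neurons carry an ICAM of their own.

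The promoters of 5 members are shown because they belong to the pairs and the chain on which the results turn. Itgam and Itgax are neighbouring genes that encode alternative partners of the same beta chain (chromosome 7, 128062640 to 128118491 and chromosome 7, 128129547 to 128150657, 11055 bases apart on the same strand). Icam1 and Icam5 are neighbours too (chromosome 9, 21015985 to 21028817 and chromosome 9, 21032073 to 21039036, 3255 bases apart on the same strand), and differed in opposite directions after haemorrhage. Itgb5 (chromosome 16, 33829665 to 33949338) had the highest level of all members in ICH. Coordinates of genes are as deposited, with the build not stated in the labels, and 29 of the 32 members have the start and end of GENCODE M21 (GRCm38). The sequences are RefSeq's on GRCm38.p6, 300 bases around the annotated start and mostly before it, 5′ to 3′ on the gene's strand, and 22 of the 32 members had an entry. Capitals mark letters that match GAGGAA (a core bound by PU.1 and other ETS factors), GGG followed by any 3 bases and TTCC, or GGAAATTCC (both NF-kappaB), GGGCGG (Sp1), TGANTCA (AP-1) or TATAAA, read on both strands.
Itgam promoter, chr7:128062390-128062689, plus strand: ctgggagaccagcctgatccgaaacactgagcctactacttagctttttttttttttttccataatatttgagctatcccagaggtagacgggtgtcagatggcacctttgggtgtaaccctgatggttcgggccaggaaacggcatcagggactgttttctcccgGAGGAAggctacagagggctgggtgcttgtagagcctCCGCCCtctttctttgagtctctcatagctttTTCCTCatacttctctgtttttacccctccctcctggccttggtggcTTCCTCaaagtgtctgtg
Itgax promoter, chr7:128129300-128129599, plus strand: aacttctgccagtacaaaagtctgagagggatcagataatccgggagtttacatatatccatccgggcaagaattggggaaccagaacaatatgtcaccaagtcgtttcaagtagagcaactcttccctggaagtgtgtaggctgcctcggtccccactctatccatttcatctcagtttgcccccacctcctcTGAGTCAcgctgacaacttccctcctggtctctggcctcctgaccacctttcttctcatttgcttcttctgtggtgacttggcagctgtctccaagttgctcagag
Icam1 promoter, chr9:21015690-21015989, plus strand: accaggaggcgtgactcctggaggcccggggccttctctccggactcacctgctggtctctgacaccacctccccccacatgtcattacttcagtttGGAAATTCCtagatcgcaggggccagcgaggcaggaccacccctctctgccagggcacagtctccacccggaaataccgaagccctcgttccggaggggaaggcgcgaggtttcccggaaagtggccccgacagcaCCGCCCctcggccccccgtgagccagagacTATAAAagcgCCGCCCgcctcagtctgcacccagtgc
Icam5 promoter, chr9:21031788-21032087, plus strand: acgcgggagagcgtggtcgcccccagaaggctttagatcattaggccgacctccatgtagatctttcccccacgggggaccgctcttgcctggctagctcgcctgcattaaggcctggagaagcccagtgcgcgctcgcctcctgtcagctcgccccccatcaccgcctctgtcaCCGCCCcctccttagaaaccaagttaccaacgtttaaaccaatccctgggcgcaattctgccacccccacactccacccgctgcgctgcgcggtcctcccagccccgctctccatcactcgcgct
Itgb5 promoter, chr16:33829415-33829714, plus strand: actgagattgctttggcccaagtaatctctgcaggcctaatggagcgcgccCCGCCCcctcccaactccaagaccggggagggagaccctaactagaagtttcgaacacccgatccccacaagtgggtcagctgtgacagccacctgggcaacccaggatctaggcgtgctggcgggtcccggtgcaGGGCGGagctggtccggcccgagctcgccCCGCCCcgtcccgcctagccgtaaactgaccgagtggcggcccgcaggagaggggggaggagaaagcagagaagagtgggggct

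The Itgam window held GAGGAA 3 times, starting 84 bases before the annotated start on the plus strand and at -15 and 32 on the minus strand, and 1 minus-strand GGGCGG at -47. The Itgax window held TGANTCA once, at -56, and no GAGGAA. The Icam1 window held GGAAATTCC at -153, GGGCGG on the minus strand at -17 and 23, and TATAAA at 13, while the Icam5 window held only a minus-strand GGGCGG at -75. Positions are counted from the RefSeq promoter start of each window, which is not always the deposited gene start. In Icam1 and Icam5 the deposited starts (21015985 and 21032073) lie further downstream, and TATAAA of Icam1 lies before the deposited start. The Itgb5 window held GGGCGG 3 times. Over all 32851 RefSeq promoters of the same length, GAGGAA was found in 28.3%, the GGG to TTCC form in 5.56%, GGAAATTCC in 0.317%, GGGCGG in 35.7%, TGANTCA in 7.81% and TATAAA in 13.6%. Over the 24 promoters of the 22 members with an entry, GAGGAA was in 10, GGGCGG in 11, TGANTCA in 5, TATAAA in 2 and each NF-kappaB form in 1. GGAAATTCC was added after the letters of the Icam1 window were read, so its share is a description. In Itga2 the GGG to TTCC match overlaps a GGGCGG match.

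Estimated depths lay between 15.6 and 16.2 M fragments in ICH+PTE, with 16.4 to 16.8 M for ICH brains and 16.6 to 18.7 M for sham brains. They come from the steps between low FPKM values and are rough, so no counting interval is given. Markers of phagocytes (10 genes) summed to 130 to 281 FPKM in ICH+PTE, 1472 to 1866 in ICH and 108 to 149 in sham, those of endothelium (12 genes) to 111 to 162, 184 to 197 and 60.4 to 76.3, and those of neurons (12 genes) to 705 to 1030, 325 to 429 and 851 to 958, in the same order of groups. Choroid plexus markers (8 genes) ranged within every group, from 10.1 to 401 FPKM in ICH+PTE, 30.0 to 901 in ICH and 60.3 to 955 in sham, and were highest in library 1 of each group. Small intestine markers (24 genes) summed to 13.7 to 30.1 FPKM in ICH+PTE, 15.4 to 19.0 in ICH and 13.3 to 24.1 in sham, and these full sums overlapped. Without Apoa1, Fabp1, Olfm4, Krt8 and Krt20, left out after their values were seen, the other 19 genes summed to 4.82 to 11.2 FPKM in ICH+PTE, 1.56 to 2.22 in ICH and 0.591 to 1.06 in sham, with no overlap. Of the 24 genes, 12 lay above ICH in all ICH+PTE libraries and 1 below (18.5% and 18.5% of all 36346 genes). Only 3 of them were tested, of which 1 was called higher and 0 lower in ICH+PTE than in ICH, with a median of -0.50. Over all tested genes 26.4% were called higher and 30.5% lower there. Fabp6, a bile acid carrier of the ileum, was at 1.03 to 3.27 FPKM in ICH+PTE and listed at 0 in the other 6 libraries. The part of these differences in the results below was not tested, except where a value without library 1 of each group is given.

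Most members were higher in brains with haemorrhage alone than in sham brains, and most were lower in brains with haemorrhage and pterostilbene than in those with haemorrhage alone. In ICH against sham, 31.6% of all tested genes were called higher and 32.1% lower. Of the members, 25 passed the filter of at least 1 FPKM in 3 libraries, and 20 of them were higher, 1 (Icam5) was lower and 4 (Itgb8, Itga10, Itga3 and Itgb4) were not called. The median difference of the 25 was 1.44, beside -0.02 over all tested genes. In ICH+PTE against ICH, where 26.4% of all tested genes were called higher and 30.5% lower, 3 members were higher (Itgb8, Itga3 and Icam5), 19 were lower and 3 (Itga10, Itga7 and Itgb4) were not called, with a median of -1.14 beside -0.02. In ICH+PTE against sham, where 11.3% of all tested genes were called higher and 12.1% lower, 8 members were higher (Itgam, Itgb2, Itgb1, Itga3, Itga6, Itga7, Itga5 and Icam1), 3 were lower (Itga10, Itga9 and Icam5) and 14 were not called, with a median of 0.42 beside -0.03.

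Groups without overlap were counted as well. In ICH against sham all ICH libraries lay above all sham libraries for 20 tested members (35.7% of all tested genes) and below them for 2 (37.8%). All ICH+PTE libraries lay above all ICH libraries for 3 (30.3%) and below them for 22 (34.5%), among them Itga10, Itga7 and Itgb4, which were not called. They lay above all sham libraries for 13 (18.0%) and below them for 3 (20.7%). Counting the untested members as well, the numbers above and below were 24 and 2 in ICH against sham (20.1% and 21.4% of all 36346 genes, many of them at or near 0), 4 and 24 in ICH+PTE against ICH (18.5% and 18.5%), and 15 and 3 in ICH+PTE against sham (11.7% and 11.2%).

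Each group stands in 2 of the comparisons, so none of them is independent of the others. The filter was passed by Itgal, Itgax, Itga4, Itgb7 and Itga1 only through their ICH libraries, so these 5 had to differ, and counts over the tested members are a description. Itgb3 and Selp reached 1 FPKM in 4 and 5 libraries, none of them sham. Without ICH libraries these genes would not have passed either, so their p-values against ICH are also a description. In bulk tissue, fewer cells of a type and less RNA per cell cannot be told apart. Leaving out a library changed the small counts: without sham 1, 2 members were lower in ICH than in sham, and the 3 members lower in ICH+PTE than in sham became 0 without sham 2 and 1 without sham 1, without sham 3, without ICH 3 or without ICH+PTE 2. Without library 1 of each group, 21 members were higher and 1 lower in ICH against sham, 2 were higher and 19 lower in ICH+PTE against ICH, and 8 were higher and 3 lower in ICH+PTE against sham.

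**Figure D1:**
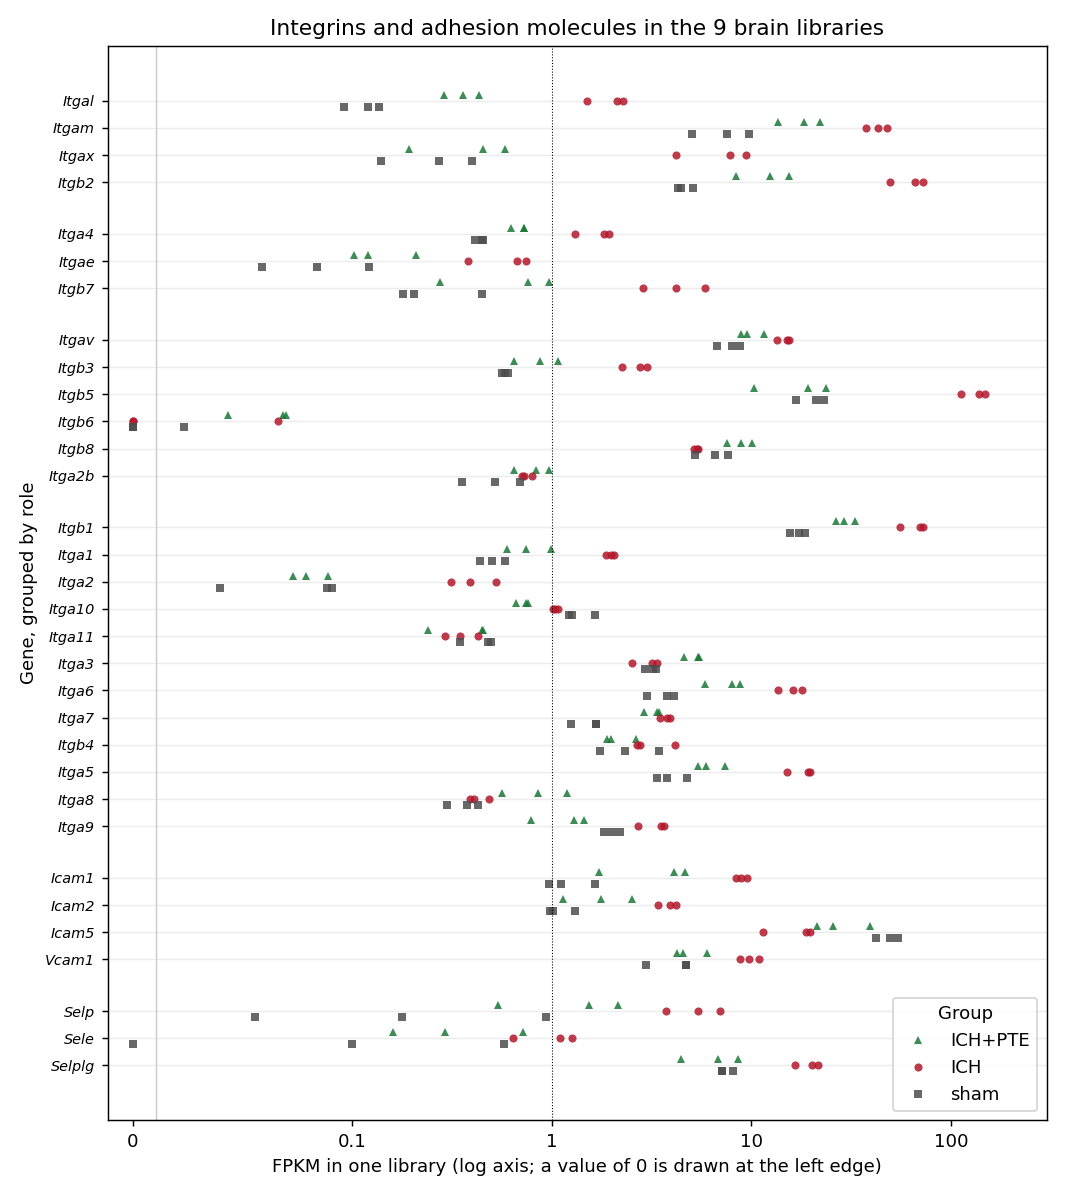
FPKM of each of the 32 members (rows, grouped by role) in each library on a log axis, with ICH+PTE as triangles, ICH as circles and sham as squares, values of 0 at the left edge and a dotted line at the 1 FPKM of the filter. ICH circles lie right of both other groups for most members, the squares of Icam5 lie right of both other groups (42.2 to 53.9 FPKM), and Itgb8 and Itga3 have their triangles furthest right on average.

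The leukocyte integrins with the beta2 chain differed widely between the groups. The 4 members of the class, Itgb2, Itgam, Itgax and Itgal, were higher in ICH than in sham and lower in ICH+PTE than in ICH, with medians of 2.87 and -1.93. Since Itgax and Itgal passed the filter only through their ICH libraries, these medians are a description. Itgad, the alpha D chain that also pairs with beta2 and is not among the 32 members, went another way: it was at 0.675, 0.499 and 0.496 FPKM in ICH+PTE brains, 0.322, 0.0614 and 0.0771 FPKM in ICH brains and 0.0445, 0.0415 and 0.0431 FPKM in sham brains. These levels were too low for the filter, and the ICH+PTE libraries lay above all others. Itgb2, the beta2 chain (CD18) that every one of these receptors needs to reach the surface (chromosome 10, 77530252 to 77565686), stood at 8.35, 15.4 and 12.4 FPKM in ICH+PTE brains, 49.6, 72.2 and 65.8 FPKM in ICH brains and 4.29, 5.11 and 4.47 FPKM in sham brains. The 3 groups did not overlap, and the ICH+PTE libraries lay between the others. Its mean was 13.5-fold higher in ICH than in sham and 2.61-fold higher in ICH+PTE than in sham. On the log2 scale the differences were 3.61 ± 0.21 (adjusted p = 1.01e-06) for ICH minus sham, -2.35 ± 0.21 (adjusted p = 2.28e-05) for ICH+PTE minus ICH and 1.26 ± 0.21 (adjusted p = 0.00267) for ICH+PTE minus sham. Itgam, the alpha M chain (CD11b) of complement receptor 3 on microglia, macrophages and neutrophils, stood at 13.6, 22 and 18.4 FPKM in ICH+PTE brains, 37.7, 47.6 and 43.2 FPKM in ICH brains and 5.07, 9.76 and 7.51 FPKM in sham brains. Here too the groups did not overlap, with ICH+PTE between ICH and sham. The log2 differences of Itgam were 2.48 ± 0.22 (adjusted p = 1.12e-05) for ICH minus sham, -1.25 ± 0.22 (adjusted p = 0.00108) for ICH+PTE minus ICH and 1.24 ± 0.22 (adjusted p = 0.0045) for ICH+PTE minus sham.

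Itgax, the alpha X chain (CD11c) known from dendritic cells and from activated microglia, stood at 0.194, 0.584 and 0.453 FPKM in ICH+PTE brains, 4.2, 9.41 and 7.84 FPKM in ICH brains and 0.273, 0.401 and 0.141 FPKM in sham brains. ICH lay far above both other groups, whose values overlapped. The log2 differences were 3.26 ± 0.28 (adjusted p = 9.04e-06) for ICH minus sham, -3.03 ± 0.28 (adjusted p = 3e-05) for ICH+PTE minus ICH and 0.23 ± 0.28 (adjusted p = 0.592) for ICH+PTE minus sham. Itgal, the alpha L chain (CD11a) of LFA-1, the receptor by which lymphocytes and monocytes hold ICAM molecules, ranged from 0.29 to 0.435 FPKM in ICH+PTE, 1.51 to 2.27 in ICH and 0.0919 to 0.136 in sham. The 3 groups of Itgal did not overlap, although its difference between ICH+PTE and sham was not called (0.48 ± 0.19, adjusted p = 0.0869). It was called with a pseudocount of 0.1 (adjusted p = 0.0345), on TPM (0.0474) and without the mean-variance trend (0.0323). The fitted difference of so low a gene understates its change: the ratio of the means was 3.11-fold for ICH+PTE over sham and 16.9-fold for ICH over sham. As the filter was passed by Itgax and Itgal only through ICH, ICH had to lie above both other groups. Their p-values against ICH are therefore a description.

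Markers of neutrophils (13 genes) summed to 20.9 to 36.4 FPKM in ICH+PTE, 40.2 to 57.1 in ICH and 5.52 to 6.35 in sham, where Ly6g was listed at 0 in all ICH and sham libraries and Elane in all sham libraries. Of the 5 tested neutrophil markers, 5 were higher in ICH than in sham, 2 were lower in ICH+PTE than in ICH (median of the 5 at -0.50) and 4 were higher in ICH+PTE than in sham (median 1.68). Over all tested genes the shares of such calls were 31.6%, 30.5% and 11.3%. Markers of monocytes (8 genes) summed to 53.2 to 132 FPKM in ICH+PTE, 2502 to 3183 in ICH and 42.6 to 73.9 in sham, most of it Lyz2. Without Lyz2, left out after its values were seen, the other 7 summed to 22.3 to 32.2 FPKM in ICH+PTE, 70.4 to 97.3 in ICH and 5.93 to 6.92 in sham. Much of these sums was Fn1, at 10.1 to 21.2, 47.7 to 71.0 and 5.05 to 5.75 FPKM in the same order. As Fn1 is also listed as an integrin ligand, the sums are not a measure of monocytes alone. Of the 8 monocyte markers, 8 were higher in ICH than in sham, 7 were lower in ICH+PTE than in ICH (median -1.32) and 5 were higher in ICH+PTE than in sham (median 1.22). Apart from Lyz2 and Fn1, these markers were so low in sham that they could pass the filter only with haemorrhage libraries. Genes low in sham are tested only where another group is high, so the marker counts of this paragraph are a description. Of the 10 phagocyte markers, 10 were higher in ICH than in sham, 10 were lower in ICH+PTE than in ICH and 3 exceeded sham in ICH+PTE. The monocyte and phagocyte counts stand beside the same 31.6%, 30.5% and 11.3% of all tested genes. The part of each cell type in the beta2 values was not tested.

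The alpha4 and beta7 chains, which pair with each other on lymphocytes that home to the gut, and of which alpha4 also pairs with beta1 to bind VCAM1, were low. Itgb7 stood at 0.767, 0.973 and 0.277 FPKM in ICH+PTE brains, 2.86, 5.88 and 4.21 FPKM in ICH brains and 0.451, 0.181 and 0.206 FPKM in sham brains. Its ICH libraries lay above all others, and ICH+PTE and sham overlapped. The fit gave differences of 2.60 ± 0.29 (adjusted p = 3.87e-05) for ICH minus sham, -2.04 ± 0.29 (adjusted p = 0.000291) for ICH+PTE minus ICH and 0.56 ± 0.29 (adjusted p = 0.193) for ICH+PTE minus sham. Itga4, the target chain of natalizumab in people, ranged from 0.625 to 0.732 FPKM in ICH+PTE, 1.31 to 1.93 in ICH and 0.416 to 0.456 in sham, with no overlap between any of the groups. In log2 units the differences were 1.21 ± 0.17 (adjusted p = 0.000131) for ICH minus sham, -0.86 ± 0.17 (adjusted p = 0.00153) for ICH+PTE minus ICH and 0.35 ± 0.17 (adjusted p = 0.157) for ICH+PTE minus sham. Because Itgb7 and Itga4 passed the filter only through their ICH libraries, ICH had to lie above the other groups. The p-values of both genes against ICH are therefore a description. Itgae (CD103), the beta7 partner that binds E-cadherin, ranged from 0.103 to 0.209 FPKM in ICH+PTE, 0.384 to 0.748 in ICH and 0.0357 to 0.122 in sham and did not pass the filter. The gene Haspin lies within Itgae on the other strand and averaged 0.523, 1.70 and 0.232 FPKM in ICH+PTE, ICH and sham; the libraries keep the strand, but the labels do not give the strand setting used in counting. Markers of T and NK cells (14 genes, 2 of them tested) summed to 3.74 to 5.15 FPKM in ICH+PTE, 7.23 to 16.6 in ICH and 3.65 to 10.7 in sham, where Trbc2 alone reached 7.94. Gene by gene, 11 of the 14 lay below ICH in all ICH+PTE libraries (18.5% of all 36346 genes), and 13 lay above sham in all ICH libraries (20.1%). Of the 2 tested, 1 was called higher in ICH than in sham (31.6% of all tested genes). In ICH+PTE against ICH 0 were called (26.4% of all tested genes higher and 30.5% lower). Markers of dendritic cells (8 genes, Itgae among them) summed to 3.80 to 6.06, 7.21 to 12.5 and 6.54 to 7.80 FPKM in ICH+PTE, ICH and sham.

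Among the alpha V integrins, which bind the RGD motif of vitronectin, fibronectin and osteopontin, the beta chains went separate ways. Itgb5, whose product with alpha V takes part in the uptake of dying cells and binds vitronectin, stood at 10.3, 23.8 and 19.1 FPKM in ICH+PTE brains, 111, 138 and 148 FPKM in ICH brains and 21.1, 23.2 and 16.7 FPKM in sham brains. ICH lay far above both other groups, and ICH+PTE and sham overlapped. Its mean was 6.51-fold higher in ICH than in sham, and the ICH mean was 7.46-fold that of ICH+PTE. Its log2 differences were 2.68 ± 0.26 (adjusted p = 1.66e-05) for ICH minus sham, -2.93 ± 0.26 (adjusted p = 2.35e-05) for ICH+PTE minus ICH and -0.26 ± 0.26 (adjusted p = 0.502) for ICH+PTE minus sham. The small difference to sham has no firm sign, as it was 0.080 without ICH+PTE 1 (adjusted p = 0.770) and 0.11 without library 1 of each group (adjusted p = 0.669).

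Itgb8, whose product with alpha V frees active TGF-beta from its latent form and is known in the brain from astrocytes and neural precursors, went the other way, at 8.84, 7.56 and 10.1 FPKM in ICH+PTE brains, 5.14, 5.38 and 5.42 FPKM in ICH brains and 5.24, 7.68 and 6.55 FPKM in sham brains. The ICH+PTE libraries all lay above the ICH libraries, and the sham libraries overlapped both. On the log2 scale the differences were -0.25 ± 0.14 (adjusted p = 0.15) for ICH minus sham, 0.67 ± 0.14 (adjusted p = 0.00285) for ICH+PTE minus ICH and 0.42 ± 0.14 (adjusted p = 0.0594) for ICH+PTE minus sham. The difference of Itgb8 between ICH and sham was called lower without haemoglobin and mitochondrially encoded genes (adjusted p = 0.0142), with array weights (0.0123) and without sham 1 (0.0320). Its difference between ICH+PTE and sham was called with quantile normalization (0.0456), scaling by the median of ratios (0.0477), without sham 2 (0.0390) and without ICH+PTE 2 (0.0437).

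Itgav, the alpha V chain itself, stood at 8.86, 9.5 and 11.6 FPKM in ICH+PTE brains, 13.4, 15.1 and 15.5 FPKM in ICH brains and 6.75, 8.02 and 8.82 FPKM in sham brains. Its 3 groups did not overlap, but ICH+PTE and sham came within a small step of each other. The fit gave differences of 0.86 ± 0.13 (adjusted p = 0.000243) for ICH minus sham, -0.54 ± 0.13 (adjusted p = 0.00558) for ICH+PTE minus ICH and 0.32 ± 0.13 (adjusted p = 0.098) for ICH+PTE minus sham. The fall in ICH+PTE against ICH was not called without haemoglobin and mitochondrially encoded genes (adjusted p = 0.135). Itgb3, the beta3 chain of the vitronectin receptor on endothelium and macrophages and of the platelet fibrinogen receptor, stood at 0.649, 1.08 and 0.875 FPKM in ICH+PTE brains, 2.26, 2.99 and 2.76 FPKM in ICH brains and 0.567, 0.584 and 0.607 FPKM in sham brains. ICH lay above ICH+PTE, and ICH+PTE above sham, with no overlap. In log2 units the differences were 1.54 ± 0.16 (adjusted p = 2.9e-05) for ICH minus sham, -1.22 ± 0.16 (adjusted p = 0.000211) for ICH+PTE minus ICH and 0.32 ± 0.16 (adjusted p = 0.183) for ICH+PTE minus sham. Itgb3 would not have passed the filter without its ICH libraries, so its p-values against ICH are a description.

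Itga2b, the alpha chain of the platelet fibrinogen receptor, ranged from 0.65 to 0.973 FPKM in ICH+PTE, 0.709 to 0.801 in ICH and 0.355 to 0.692 in sham and was not tested. Platelet markers (10 genes) summed to 10.4 to 19.6 FPKM in ICH+PTE, 95.6 to 124 in ICH and 2.23 to 2.77 in sham, but without Pf4, left out after its values were seen, the sums were 1.47 to 2.77, 1.72 to 3.66 and 1.24 to 2.11. Itgb6, the beta chain of an epithelial activator of TGF-beta, ranged from 0.0242 to 0.047 FPKM in ICH+PTE, 0 to 0.0425 in ICH and 0 to 0.0144 in sham, which is at the edge of detection.

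Most chains of the beta1 family for laminin and fibronectin were higher in ICH than in sham, Itga3 being an exception, and several of them were higher in ICH+PTE than in sham. Itgb1, the shared beta1 chain of collagen, laminin and fibronectin receptors, stood at 26.6, 33 and 28.9 FPKM in ICH+PTE brains, 55.4, 72.5 and 69.8 FPKM in ICH brains and 17.3, 18.4 and 15.6 FPKM in sham brains. The 3 groups did not overlap. Its log2 differences were 1.91 ± 0.13 (adjusted p = 2.03e-06) for ICH minus sham, -1.14 ± 0.13 (adjusted p = 7.25e-05) for ICH+PTE minus ICH and 0.77 ± 0.13 (adjusted p = 0.00276) for ICH+PTE minus sham. Itga5, the fibronectin receptor chain of vessels and macrophages, stood at 5.92, 7.35 and 5.41 FPKM in ICH+PTE brains, 15, 19.1 and 19.5 FPKM in ICH brains and 4.76, 3.76 and 3.38 FPKM in sham brains, again with no overlap. On the log2 scale the differences were 2.04 ± 0.16 (adjusted p = 4.29e-06) for ICH minus sham, -1.45 ± 0.16 (adjusted p = 6.34e-05) for ICH+PTE minus ICH and 0.59 ± 0.16 (adjusted p = 0.0233) for ICH+PTE minus sham. The last of these calls was lost with all genes above 0 tested (adjusted p = 0.0670) and when sham 2 (0.0722), sham 3 (0.0867) or ICH+PTE 2 (0.0723) was left out. Fn1, which encodes fibronectin, is among the ligands described further on.

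Laminin receptors fell into different patterns. Itga6, which with beta1 or beta4 binds the laminin of basement membranes, stood at 5.86, 8.78 and 7.97 FPKM in ICH+PTE brains, 13.6, 17.9 and 16.2 FPKM in ICH brains and 2.99, 4.09 and 3.79 FPKM in sham brains. Its groups did not overlap, and ICH+PTE lay between ICH and sham. The fit gave differences of 1.99 ± 0.17 (adjusted p = 7.25e-06) for ICH minus sham, -1.04 ± 0.17 (adjusted p = 0.000573) for ICH+PTE minus ICH and 0.95 ± 0.17 (adjusted p = 0.00376) for ICH+PTE minus sham. Itga7, a laminin receptor chain best known from muscle, stood at 3.38, 3.45 and 2.92 FPKM in ICH+PTE brains, 3.49, 3.76 and 3.92 FPKM in ICH brains and 1.66, 1.66 and 1.25 FPKM in sham brains. Both haemorrhage groups lay above sham. In log2 units the differences were 1.07 ± 0.13 (adjusted p = 5.67e-05) for ICH minus sham, -0.17 ± 0.13 (adjusted p = 0.265) for ICH+PTE minus ICH and 0.89 ± 0.13 (adjusted p = 0.00141) for ICH+PTE minus sham. The second of these was 0.065 without haemoglobin and mitochondrially encoded genes (adjusted p = 0.667).

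Itga3, a laminin receptor chain also found on epithelia and neurons, stood at 5.49, 5.42 and 4.6 FPKM in ICH+PTE brains, 3.38, 2.52 and 3.18 FPKM in ICH brains and 2.92, 3.32 and 3.21 FPKM in sham brains. Only its ICH+PTE libraries stood apart, above both other groups, which overlapped. Its log2 differences were -0.05 ± 0.13 (adjusted p = 0.724) for ICH minus sham, 0.69 ± 0.13 (adjusted p = 0.00128) for ICH+PTE minus ICH and 0.63 ± 0.13 (adjusted p = 0.00718) for ICH+PTE minus sham, and the first of them was 0.053 without ICH 2 (adjusted p = 0.751). Itgb4, the beta4 chain that anchors epithelial and some vascular cells to laminin, stood at 1.89, 2.64 and 1.98 FPKM in ICH+PTE brains, 2.69, 4.14 and 2.78 FPKM in ICH brains and 3.46, 1.74 and 2.34 FPKM in sham brains. Its ICH libraries lay above those of ICH+PTE, while sham overlapped both. On the log2 scale the differences were 0.31 ± 0.22 (adjusted p = 0.244) for ICH minus sham, -0.46 ± 0.22 (adjusted p = 0.104) for ICH+PTE minus ICH and -0.15 ± 0.22 (adjusted p = 0.674) for ICH+PTE minus sham. The first was called with array weights (adjusted p = 0.0344) and without library 1 of each group (0.0414), and the last was 0.063 with array weights (0.868), 0.071 without sham 1 (0.835) and 0.14 without library 1 of each group (0.661).

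Itga9, which with beta1 binds tenascin-C, osteopontin and VCAM1, stood at 0.788, 1.3 and 1.45 FPKM in ICH+PTE brains, 2.7, 3.51 and 3.66 FPKM in ICH brains and 1.83, 2.0 and 2.19 FPKM in sham brains. It was highest in ICH and lowest in ICH+PTE, with no overlap. The fit gave differences of 0.59 ± 0.18 (adjusted p = 0.0148) for ICH minus sham, -1.19 ± 0.18 (adjusted p = 0.000382) for ICH+PTE minus ICH and -0.60 ± 0.18 (adjusted p = 0.0361) for ICH+PTE minus sham. The first call was lost on TPM (adjusted p = 0.0857), without haemoglobin and mitochondrially encoded genes (0.137), and when ICH 2 (0.0537) or ICH 3 (0.0593) was left out. The last call was lost under 9 alternatives, which were leaving out any 1 sham library (adjusted p = 0.0580, 0.0905 and 0.115), ICH 2 (0.0526), ICH 3 (0.0525), ICH+PTE 1 (0.0684) or ICH+PTE 2 (0.0524), and the fits with all genes above 0 (0.0942) and with the 2 groups alone (0.0683). The genes Gm10157 and Gm2415 overlap Itga9 on the other strand and averaged 13.8 and 4.21 FPKM in ICH+PTE, 9.80 and 4.32 in ICH and 10.3 and 7.67 in sham.

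Collagen receptor chains were low. Itga1 ranged from 0.597 to 0.997 FPKM in ICH+PTE, 1.88 to 2.04 in ICH and 0.44 to 0.588 in sham, with no overlap between groups and differences of 1.29 ± 0.16 (adjusted p = 7.95e-05) for ICH minus sham, -0.96 ± 0.16 (adjusted p = 0.000758) for ICH+PTE minus ICH and 0.33 ± 0.16 (adjusted p = 0.169) for ICH+PTE minus sham. The gene Pelo lies within Itga1 on the same strand and averaged 4.42, 7.18 and 5.01 FPKM in ICH+PTE, ICH and sham, so Itga1 values are uncertain. Itga1 also passed the filter only through its ICH libraries, so its p-values against ICH are a description. Itga10, known from cartilage, ranged from 0.663 to 0.763 FPKM in ICH+PTE, 1.02 to 1.07 in ICH and 1.23 to 1.66 in sham. It was highest in sham and lowest in ICH+PTE, with no overlap. In log2 units the differences were -0.28 ± 0.15 (adjusted p = 0.124) for ICH minus sham, -0.34 ± 0.15 (adjusted p = 0.0764) for ICH+PTE minus ICH and -0.62 ± 0.15 (adjusted p = 0.0157) for ICH+PTE minus sham, and the last call was lost without sham 2 (adjusted p = 0.0715). The first was called lower with quantile normalization (0.0248), without haemoglobin and mitochondrially encoded genes (0.0166), without the trend (0.0485) and with array weights (0.0209), and the second without the trend (0.0264).

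The remaining matrix receptors did not pass the filter. Itga2, a collagen receptor chain of platelets and epithelia, ranged from 0.0506 to 0.0761 FPKM in ICH+PTE, 0.314 to 0.53 in ICH and 0.0219 to 0.0798 in sham, so that ICH stood above both others. Itga8, a receptor chain for nephronectin and fibronectin, was highest in ICH+PTE, at 0.566 to 1.2 FPKM, beside 0.392 to 0.484 in ICH and 0.299 to 0.427 in sham. Itga11, a collagen receptor chain of fibroblasts, ranged from 0.24 to 0.455 FPKM in ICH+PTE, 0.293 to 0.427 in ICH and 0.35 to 0.50 in sham, with overlap between all groups.

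**Figure D2:**
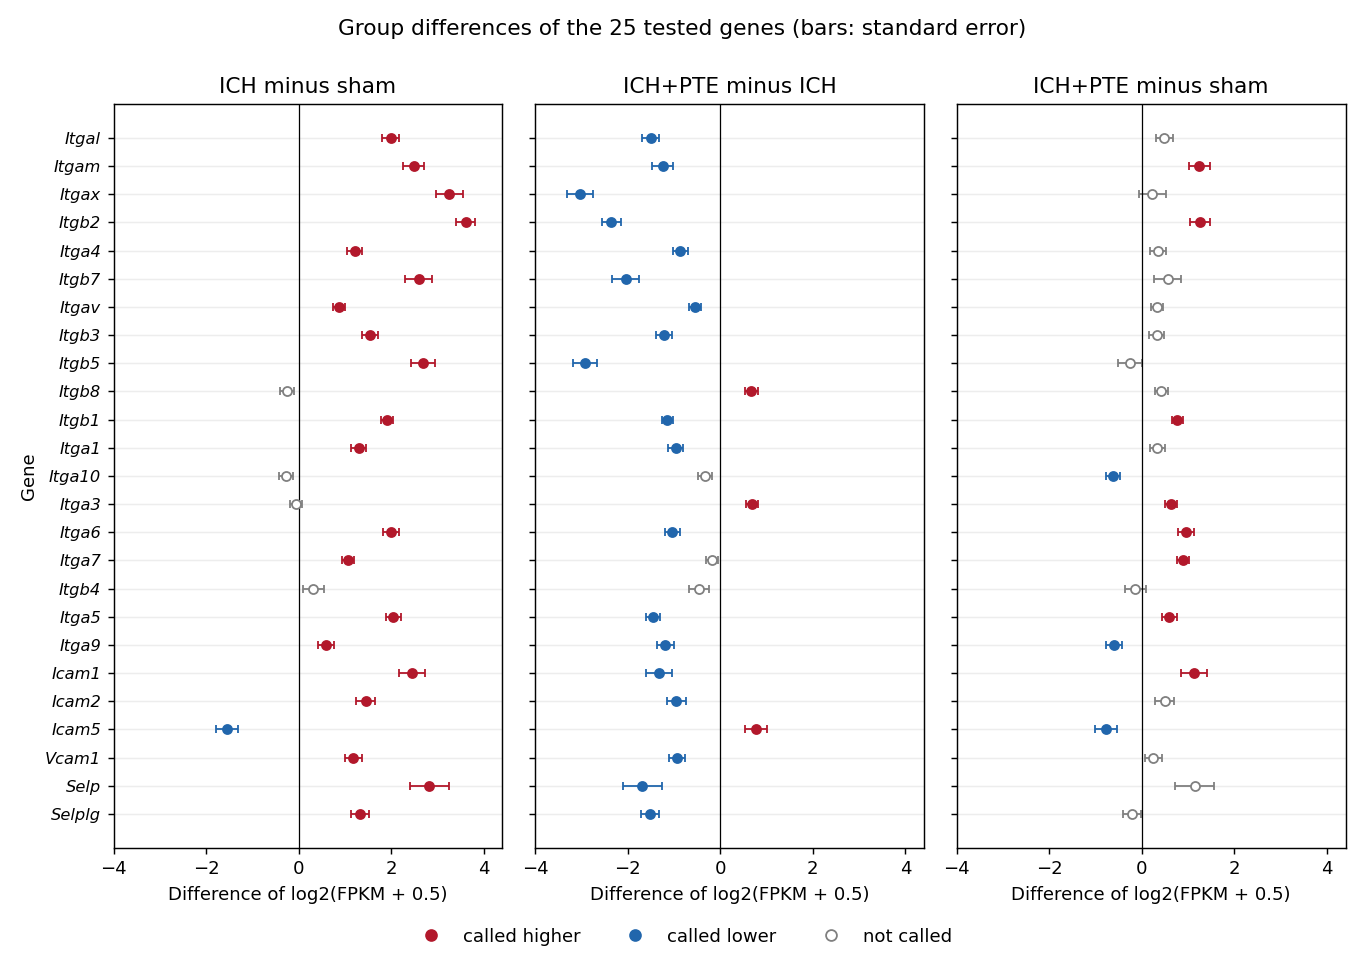
Differences of log2(FPKM + 0.5) for the 25 tested members, with ICH minus sham on the left, ICH+PTE minus ICH in the middle and ICH+PTE minus sham on the right, with bars of 1 standard error, filled where limma called the gene. Most points are right of 0 in the left panel and left of 0 in the middle panel, and 14 of the 25 are open in the right panel.

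The 3 counter-receptors on vessels were higher in ICH than in sham, and the one on neurons was lower. Icam1, the cytokine-induced endothelial ligand of LFA-1 and of alpha M beta2, stood at 4.09, 4.63 and 1.73 FPKM in ICH+PTE brains, 8.41, 9.49 and 8.84 FPKM in ICH brains and 0.975, 1.11 and 1.66 FPKM in sham brains. ICH lay above both others, and the lowest ICH+PTE library came close to the highest sham library without overlap. Its log2 differences were 2.45 ± 0.28 (adjusted p = 4.06e-05) for ICH minus sham, -1.33 ± 0.28 (adjusted p = 0.00252) for ICH+PTE minus ICH and 1.12 ± 0.28 (adjusted p = 0.0174) for ICH+PTE minus sham. The call in ICH+PTE against sham was lost with all genes above 0 tested (adjusted p = 0.0663), when sham 1 (0.0564), sham 2 (0.0558) or ICH+PTE 2 (0.0551) was left out, and without library 1 of each group (0.135). Vcam1, the endothelial ligand of alpha4 integrins that astrocytes can make too, stood at 4.23, 6.0 and 4.57 FPKM in ICH+PTE brains, 8.8, 9.72 and 11 FPKM in ICH brains and 2.96, 4.72 and 4.73 FPKM in sham brains. ICH lay above both other groups, which overlapped. On the log2 scale the differences were 1.18 ± 0.18 (adjusted p = 0.000294) for ICH minus sham, -0.94 ± 0.18 (adjusted p = 0.00173) for ICH+PTE minus ICH and 0.24 ± 0.18 (adjusted p = 0.365) for ICH+PTE minus sham. Icam2, a ligand of LFA-1 that resting endothelium and platelets carry, stood at 1.15, 2.54 and 1.76 FPKM in ICH+PTE brains, 3.41, 4.21 and 3.93 FPKM in ICH brains and 1.01, 1.31 and 0.985 FPKM in sham brains. ICH was again above both others, which overlapped. The fit gave differences of 1.44 ± 0.21 (adjusted p = 0.000179) for ICH minus sham, -0.95 ± 0.21 (adjusted p = 0.00321) for ICH+PTE minus ICH and 0.49 ± 0.21 (adjusted p = 0.113) for ICH+PTE minus sham, and the last was called without ICH+PTE 1 (adjusted p = 0.0162) and without library 1 of each group (0.0441).

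Icam5, or telencephalin, an LFA-1 ligand on the dendrites of telencephalic neurons, was the only member called lower in ICH than in sham in the fit described here. It stood at 39.1, 21.4 and 25.7 FPKM in ICH+PTE brains, 19.6, 11.5 and 18.8 FPKM in ICH brains and 49.2, 42.2 and 53.9 FPKM in sham brains. Sham was highest, ICH lowest and ICH+PTE between them, with no overlap. In log2 units the differences were -1.55 ± 0.24 (adjusted p = 0.0003) for ICH minus sham, 0.77 ± 0.24 (adjusted p = 0.0204) for ICH+PTE minus ICH and -0.78 ± 0.24 (adjusted p = 0.041) for ICH+PTE minus sham, and its ICH mean was 0.343 of the sham mean. The difference in ICH+PTE against ICH was not called with all genes above 0 tested (adjusted p = 0.0698), without ICH 2 (0.0767), without ICH+PTE 1 (0.0695) and without library 1 of each group (0.0525). The difference in ICH+PTE against sham was not called under 10 alternatives, with adjusted p from 0.0522 without the trend to 0.126 without sham 3, among them leaving out sham 1 (0.0922), sham 2 (0.0627), ICH 3 (0.0533), ICH+PTE 2 (0.124) or ICH+PTE 3 (0.0977). The markers of telencephalic neurons (9 genes) summed to 198 to 377 FPKM in ICH+PTE, 56.5 to 65.8 in ICH and 202 to 253 in sham, and Gm26592, on the other strand of Icam5, averaged 2.88, 1.47 and 3.51 FPKM.

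Selectins, which begin the capture of leukocytes from blood, were low in sham. Selp, P-selectin of endothelial storage granules and of platelets (chromosome 1, 164115264 to 164150026), stood at 1.53, 2.15 and 0.543 FPKM in ICH+PTE brains, 3.73, 6.95 and 5.39 FPKM in ICH brains and 0.033, 0.179 and 0.942 FPKM in sham brains. ICH lay above both others, and sham spread over a wide range that overlapped ICH+PTE. Its log2 differences were 2.83 ± 0.42 (adjusted p = 0.000214) for ICH minus sham, -1.68 ± 0.42 (adjusted p = 0.00642) for ICH+PTE minus ICH and 1.14 ± 0.42 (adjusted p = 0.0741) for ICH+PTE minus sham. The last became a call without sham 3 (adjusted p = 0.0284) and without ICH+PTE 3 (0.0281). Selp would not have passed the filter without its ICH libraries, so its p-values against ICH are a description. Sele, E-selectin of cytokine-activated endothelium (chromosome 1, 164048234 to 164057677), ranged from 0.161 to 0.722 FPKM in ICH+PTE, 0.644 to 1.26 in ICH and 0 to 0.580 in sham and did not pass the filter. Selplg, the selectin ligand PSGL-1 that microglia and other leukocytes carry, stood at 4.44, 8.54 and 6.81 FPKM in ICH+PTE brains, 16.6, 20.1 and 21.5 FPKM in ICH brains and 7.1, 8.13 and 7.14 FPKM in sham brains. ICH lay above both others, which overlapped. On the log2 scale the differences were 1.32 ± 0.20 (adjusted p = 0.000221) for ICH minus sham, -1.52 ± 0.20 (adjusted p = 0.000161) for ICH+PTE minus ICH and -0.21 ± 0.20 (adjusted p = 0.476) for ICH+PTE minus sham. The last was 0.033 without ICH+PTE 1 (adjusted p = 0.888) and 0.0016 without library 1 of each group (0.994).

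By level per length, the order of the members changed with the group. In ICH+PTE, Itgb1 was the highest member at 29.5 ± 3.22 FPKM (mean ± SD, n = 3 here and below), with Icam5 at 28.7 ± 9.23 and Itgam at 18 ± 4.17 next to it. In ICH, Itgb5 was first at 132 ± 18.7 FPKM, followed by Itgb1 at 65.9 ± 9.18 and Itgb2 at 62.5 ± 11.6, which overlapped each other. In sham, Icam5 was first at 48.5 ± 5.9 FPKM, followed by Itgb5 at 20.3 ± 3.3 and Itgb1 at 17.1 ± 1.43, and the last pair overlapped. Itgb2 was at place 5 of 32 in ICH+PTE, 3 in ICH and 8 in sham, Itgax at place 26, 12 and 27, and Selp at place 17, 13 and 24. Itgb8 was at place 7, 14 and 7 in the same order of groups.

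Ratios between members within each library do not depend on the library's scaling. With 3 libraries against 3 the exact two-sided permutation test cannot give a p under 0.10, so none of the 87 comparisons of 29 ratios could pass the threshold. In 58 of them the groups stood fully apart (exact p = 0.10, adjusted p = 0.15). No pseudocount was added to these ratios. With a pseudocount of 0.5, 27 of the 87 differences moved by at least the SD within groups. Among the 3 partners of beta2 that are members, Itgam accounted for 95.6% to 96.1% of the summed FPKM of Itgal, Itgam and Itgax in ICH+PTE, 80.5% to 86.8% in ICH and 92.5% to 97.0% in sham. Itgax made up 1.37% to 2.54% in ICH+PTE, 9.68% to 15.9% in ICH and 1.82% to 4.98% in sham. The share of Itgax in ICH thus stood above both other groups, and ICH+PTE overlapped sham (exact permutation p = 0.30). Itgb2 over the sum of these 3 was lower by 0.92 log2 units in ICH+PTE than in ICH and higher by 0.98 in ICH than in sham (exact permutation p = 0.10 each). With Itgad added to the sum after its values were seen, these were 0.96 lower and 0.98 higher. Itgad itself made up 2.12% to 4.54% of the 4 chains in ICH+PTE, 0.104% to 0.737% in ICH and 0.402% to 0.806% in sham, and Itgam then 91.7% to 93.7%, 80.4% to 86.2% and 91.8% to 96.5%.

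Among the beta chains that can pair with alpha V, Itgb5 accounted for 22.2% to 36.3% of the summed FPKM in ICH+PTE, 63.0% to 65.4% in ICH and 42.3% to 47.8% in sham. Itgb1 made up 49.0% to 57.3%, 30.9% to 33.2% and 37.0% to 39.5% in the same order. Both shares stood apart in all 3 comparisons (exact permutation p = 0.10 each), so in ICH+PTE the order of these chains was unlike that of either other group. Itgb8 made up 11.6% to 19.0% in ICH+PTE, 2.40% to 2.95% in ICH and 11.9% to 16.6% in sham. Itgb1 also pairs with the other alpha chains described, so its share is not one of alpha V receptors.

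**Figure D3:**
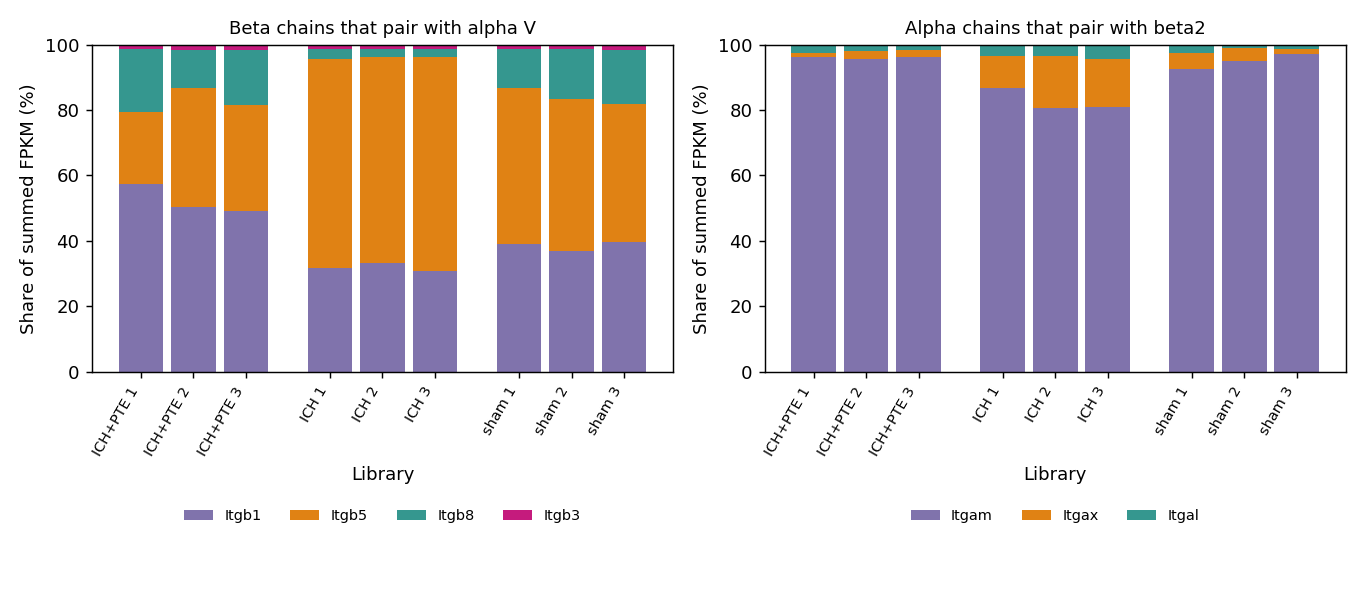
Left, share (%) of Itgb1, Itgb5, Itgb8 and Itgb3 in the summed FPKM of the beta chains that can pair with alpha V, and right, share (%) of Itgam, Itgax and Itgal in their sum, with 1 bar per library. In the left panel Itgb5 takes 63.0% to 65.4% of each ICH bar and at most 36.3% of an ICH+PTE bar, and in the right panel Itgax takes 9.68% to 15.9% of each ICH bar and at most 4.98% of any other.

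Set against 8 markers of phagocytes (the geometric mean of Aif1, Csf1r, Tyrobp, Fcer1g, Laptm5, Spi1, Ptprc and Ly86 in the same library), the leukocyte members differed among themselves. Itgam relative to these markers was higher in ICH+PTE than in ICH by 1.41 log2 units and lower in ICH than in sham by 0.59 (exact permutation p = 0.10 each). Itgax ran the other way, lower by 1.5 in ICH+PTE than in ICH and higher by 1.61 in ICH than in sham (p = 0.10 each, exact permutation). In ICH+PTE and sham Itgax was only at 0.141 to 0.584 FPKM, so the sizes of both differences rest on low values. Itgb2 relative to the markers was higher by 0.28 in ICH+PTE than in ICH and higher by 0.59 in ICH than in sham (exact permutation p = 0.10 each). Itga4 was higher by 1.42 in ICH+PTE than in ICH, Selplg by 1.09 and Itgav by 2.13, and the 3 were lower in ICH than in sham, by 1.23, 1.78 and 2.25 log2 units (exact permutation p = 0.10 each). Thus Itga4, Selplg and Itgav were higher in ICH than in sham by level and lower relative to phagocyte markers.

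Set against 10 markers of endothelium in the same way, Icam1 was lower by 0.77 log2 units in ICH+PTE than in ICH and higher by 1.27 in ICH than in sham (exact permutation p = 0.10 each). Selp was lower by 1.39 and higher by 3.27 in these comparisons (exact permutation p = 0.10 each), but its ratios in sham spread from -6.54 to -1.41, and the higher value was 2.0 without sham 1, 4.56 without sham 3 and 1.41 with a pseudocount of 0.5. The lower one was 0.87 without ICH+PTE 3. Itga5 was lower by 0.82 and higher by 0.58 (exact permutation p = 0.10 each). Vcam1 relative to the endothelial markers was lower by 0.30 in ICH+PTE than in ICH (p = 0.10) and differed by -0.32 between ICH and sham, where the groups overlapped (exact permutation p = 0.40). Over the phagocyte markers, Itga5, Icam1 and Vcam1 were instead higher in ICH+PTE than in ICH, by 1.16, 1.21 and 1.68 (exact permutation p = 0.10 each). Itga5 over them differed by -0.98 between ICH and sham (exact permutation p = 0.10). The sign for these genes in ICH+PTE against ICH thus depended on the marker list. Icam2 relative to the endothelial markers differed by 0.21 between ICH and sham (exact permutation p = 0.20) and was lower by 0.45 in ICH+PTE than in ICH (p = 0.10). Itga6 and Itgb1 relative to these markers were lower by 0.38 and 0.45 in ICH+PTE than in ICH. They were higher by 0.54 and 0.34 in ICH than in sham (exact permutation p = 0.10 each). Of the endothelial markers, 11 of 12 were higher in ICH than in sham, 8 lower in ICH+PTE than in ICH, and 8 higher in ICH+PTE than in sham (31.6%, 30.5% and 11.3% of all tested genes). Icam5 relative to 7 markers of neurons differed by -0.39 between ICH+PTE and ICH and by -0.23 between ICH and sham, with overlap in both (exact permutation p = 0.20 and 0.30), and by -0.63 between ICH+PTE and sham (p = 0.10). Of the neuron markers, 12 of 12 were lower in ICH than in sham and 10 exceeded their ICH level in ICH+PTE (32.1% and 26.4% of all tested genes).

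**Figure D4:**
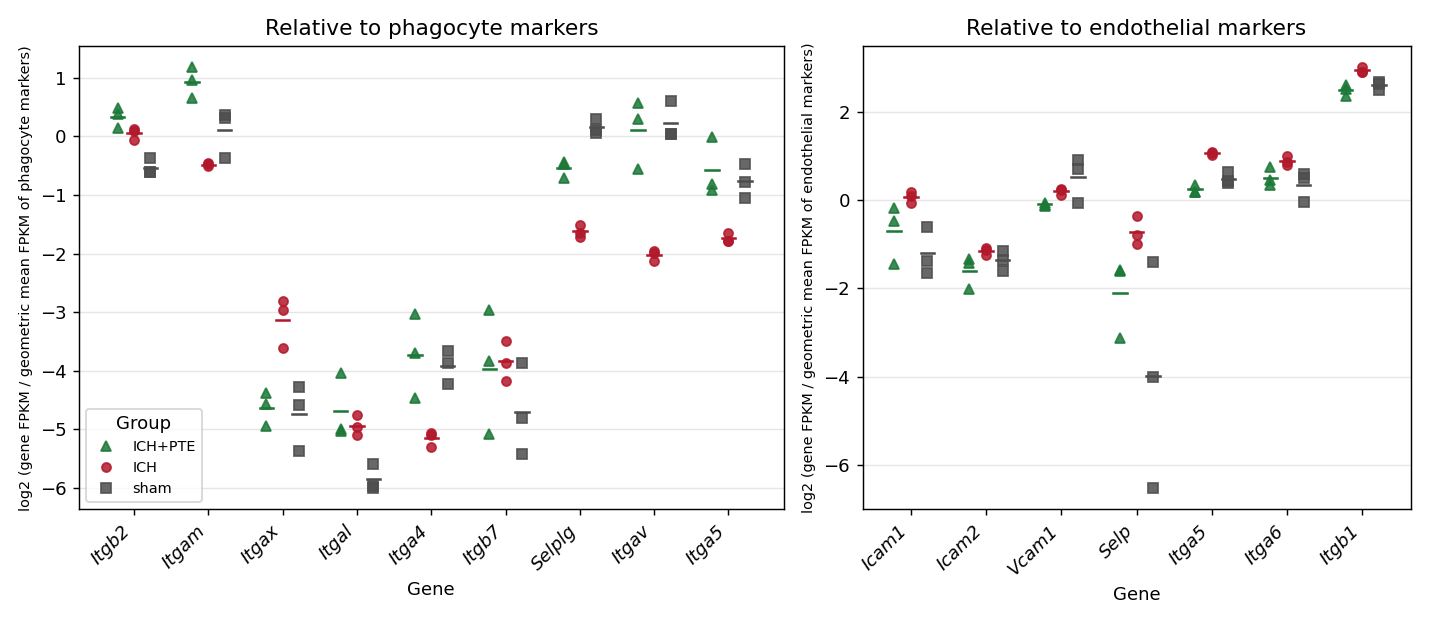
Level of leukocyte members over the geometric mean of 8 phagocyte markers (left) and of vessel members over that of 10 endothelial markers (right), as log2 ratios, with 1 point per library and a line at the group mean. Itgam has its ICH+PTE points at the top (0.66 to 1.19) and its ICH points at the bottom (-0.51 to -0.46), while Itgax has its ICH points at the top (-3.62 to -2.81).

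The partners of these receptors were followed in 4 lists of other adhesion genes, of which 103 of 104 genes were in the table and 87 were tested. In ICH against sham 62 of the 87 were higher and 11 lower (31.6% and 32.1% of all tested genes), with a median difference of 1.01. In ICH+PTE against ICH 7 were higher and 56 lower (26.4% and 30.5%), with a median of -0.65. In ICH+PTE against sham 41 were higher and 8 lower (11.3% and 12.1%), with a median of 0.43. Without sham 3, 23 were higher in the last comparison, and without library 1 of each group 43 were higher and 5 lower. The 3 comparisons share libraries as described above. The same shares over all tested genes stand beside the counts of each single list below.

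Of the 27 tested integrin ligands of matrix and plasma, 19 were higher in ICH than in sham and 1 lower, 2 were higher and 18 lower in ICH+PTE than in ICH, and 13 were higher and 1 lower in ICH+PTE than in sham. Over all tested genes these shares were 31.6% and 32.1%, 26.4% and 30.5%, and 11.3% and 12.1%. Spp1, the osteopontin bound by alpha V and alpha9 integrins, stood at 68.2, 307 and 207 FPKM in ICH+PTE brains, 4510, 6272 and 5015 FPKM in ICH brains and 32.6, 89.4 and 35.8 FPKM in sham brains. It differed by -4.99 ± 0.52 between ICH+PTE and ICH and by 6.78 ± 0.52 between ICH and sham. Col1a1, a fibrillar collagen chain, averaged 1.95 FPKM in ICH+PTE, 66.1 in ICH and 2.62 in sham, and its partner Col1a2 1.55, 31.3 and 1.09. Both chains were lower in ICH+PTE than in ICH (-4.70 and -3.90), and both are also markers of fibroblasts, whose list with mural cells (12 genes) summed to 63.6 to 115 FPKM in ICH+PTE, 201 to 336 in ICH and 37.4 to 46.3 in sham.

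The ligands with the largest differences between ICH+PTE and sham were others. Thbs1, thrombospondin 1, differed by 2.57 ± 0.44 (adjusted p = 0.00336), Vwf, the factor that ties platelets to the vessel wall, by 2.07 ± 0.23 (adjusted p = 0.000356) and Tnc, tenascin-C, by 1.89 ± 0.20 (adjusted p = 0.000335). Vwf stood at 6.11, 9.78 and 8.07 FPKM in ICH+PTE brains, 8.25, 8.91 and 9.01 FPKM in ICH brains and 0.954, 1.44 and 2.29 FPKM in sham brains, and its ICH+PTE and ICH libraries overlapped (-0.14 ± 0.23, adjusted p = 0.611). The matrix and plasma ligands were thus not all lower in ICH+PTE than in ICH.

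Of the 15 tested other adhesion receptors, 11 were higher in ICH than in sham and 3 lower, 0 were higher and 10 lower in ICH+PTE than in ICH, and 8 were higher and 2 lower in ICH+PTE than in sham. The shares over all tested genes were 31.6% and 32.1%, 26.4% and 30.5%, and 11.3% and 12.1%. Cd48, a receptor of haematopoietic cells, averaged 5.08 FPKM in ICH+PTE, 35.4 in ICH and 1.81 in sham, and Siglec1, sialoadhesin of border and blood-derived macrophages, 0.893, 6.05 and 0.22. Both were lower in ICH+PTE than in ICH (-2.80 and -2.25). Siglec1 would not have passed the filter without its ICH libraries, so its difference is a description. Cd44, the hyaluronan receptor, stood at 6.92, 8.85 and 6.93 FPKM in ICH+PTE brains, 13.3, 17 and 16 FPKM in ICH brains and 0.829, 1.61 and 0.956 FPKM in sham brains, with no overlap, and differed by 2.33 ± 0.18 between ICH+PTE and sham. Pecam1, of endothelial junctions, differed by 1.4 ± 0.16 between ICH+PTE and sham, and Mcam, of vessels and their mural cells, by -1.37 ± 0.25 between ICH+PTE and ICH. Icam4, Madcam1, Cd226 and Cd2 did not pass the filter, nor did Itgad, described with the beta2 chains.

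Of the 36 tested adaptors and activators of integrins, 26 were higher in ICH than in sham and 6 lower, 4 were higher and 24 lower in ICH+PTE than in ICH, and 16 were higher and 4 lower in ICH+PTE than in sham. Beside these stand 31.6% and 32.1%, 26.4% and 30.5%, and 11.3% and 12.1% of all tested genes. The largest differences in ICH against sham were those of Parvg, the parvin of haematopoietic cells (3.09 ± 0.22), Vav1, their exchange factor for Rac (3.06 ± 0.25), and Fgr, a Src-family kinase of myeloid cells (3.01 ± 0.22). In ICH+PTE against ICH they were those of Lims2 (-2.41 ± 0.21), an adaptor of integrin-linked kinase, Parvg (-2.37 ± 0.22) and Syk, the kinase downstream of beta2 integrins (-2.33 ± 0.20). Fgr would not have passed the filter without its ICH libraries, so its difference is a description. Parva, the widespread parvin, went against the list and stood at 8.47, 10.4 and 9.16 FPKM in ICH+PTE brains, 4.87, 4.61 and 5.49 FPKM in ICH brains and 3.74, 4.89 and 4.61 FPKM in sham brains, so that only ICH+PTE stood apart (0.84 ± 0.13 for ICH+PTE minus ICH, adjusted p = 0.000374).

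The genes of the list that were lower in ICH+PTE than in sham include Rasgrp2, the Rap1 activator known from platelets and also expressed in striatum, at 3.38, 4.1 and 3.87 FPKM in ICH+PTE brains, 7.08, 3.52 and 5.84 FPKM in ICH brains and 14.1, 10.8 and 13.7 FPKM in sham brains (-1.64 ± 0.21, adjusted p = 0.00084). Tln2, the talin of brain and muscle, stood at 3.42, 4.05 and 5.95 FPKM in ICH+PTE brains, 3.82, 3.25 and 3.76 FPKM in ICH brains and 7.72, 9.29 and 9.88 FPKM in sham brains (-0.95 ± 0.18, adjusted p = 0.00481). In both, ICH+PTE overlapped ICH and lay below sham, unlike Icam5, in which it lay between them.

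Of the 9 tested enzymes that build or sulfate selectin ligands, 6 were higher in ICH than in sham and 1 lower, 1 was higher and 4 were lower in ICH+PTE than in ICH, and 4 were higher and 1 lower in ICH+PTE than in sham. Among all tested genes the shares were 31.6% and 32.1%, 26.4% and 30.5%, and 11.3% and 12.1%. With so few enzymes tested, counts this small are a description. B4galt1, a galactosyltransferase, stood at 6.12, 6.97 and 6.0 FPKM in ICH+PTE brains, 15.9, 17.5 and 17.7 FPKM in ICH brains and 2.12, 2.36 and 1.71 FPKM in sham brains, with no overlap, and differed by -1.35 ± 0.12 between ICH+PTE and ICH and by 1.43 ± 0.12 between ICH+PTE and sham. Gcnt1, which makes the branch that carries the selectin-binding sugar on PSGL-1, averaged 2.32 FPKM in ICH+PTE, 6.41 in ICH and 1.06 in sham (-1.31 and 0.83 in the same comparisons). Tpst2, a tyrosine sulfotransferase, differed by -0.81 ± 0.12 between ICH+PTE and ICH, and Chst2 by 0.56 ± 0.13 between ICH+PTE and sham. Fut4, Fut7 and Chst4 did not pass the filter.

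Scaling moved the counts over all genes. Leaving out haemoglobin and mitochondrially encoded genes moved the median of all genes by -0.27 in ICH against sham and by 0.24 in ICH+PTE against ICH, and 33.1% and 66.0% of all calls were then higher, beside 49.6% and 46.5% on the deposited scale. On TPM the medians moved by -0.17 in ICH against sham and by -0.13 in ICH+PTE against sham, where 30.5% of the calls were higher, beside 48.2%. On TPM, and likewise without haemoglobin and mitochondrially encoded genes, 19 members were called higher in ICH than in sham.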

How the data were processed

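Brain RNA of 9 mice, 3 in each of 3 groups labelled ICH+PTE, ICH and sham, was purified by its poly(A) tails, and the dUTP method kept the strand in the libraries, per the labels' protocols. The authors deposited 1 table of FPKM values per gene and library, a unit scaled by transcript length and mapped total, so it holds no counts. Cutadapt 1.9, HISAT2 2.0.4 and StringTie 1.3.4d were used, per the submitters' processing notes, with genome build and annotation not given in the sources used here. Depth was only estimated from steps between low values.

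From these values, log2(FPKM + 0.5) was fitted with limma 3.58.1 in R 4.3.3, with 1 mean per group over all 9 libraries, a mean-variance trend and Benjamini-Hochberg adjustment over the 15376 genes with at least 1 FPKM in at least 3 libraries. This scale understates changes of low genes. The procedure was tested on simulated data. The p-values weigh differences of group means against the spread between mice within groups, pooled over the 3 groups and moderated across genes. Ratios within a library were compared by exact two-sided permutation tests. Groups and replicate numbers came from the labels, and the same number in different groups was taken to name different, unpaired mice. Symbols, sequences and motifs were matched in Python 3.11.15.

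The members and the lists of other adhesion genes and markers were chosen with earlier results of these data known. Members with a mean of at least 2 FPKM in their highest group are given in every library, and the others by their range. Of the other adhesion genes, up to 3 per list and comparison are named, those called with the largest difference and a mean of at least 2 FPKM in the higher group. The alternatives were other pseudocounts, filters, scalings and limma settings, only the groups compared, the replicate number as a block, and each library left out. A fit without library 1 of each group, which had the highest choroid plexus markers, was added after seeing the data, as were the beta2 ratios with Itgad.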

Additional observations from a re-analysis of the deposited data

How the results depend on the processing

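Counts of members called higher in ICH than in sham (20) ranged from 19 to 23 over all alternatives and from 19 to 20 when 1 library was left out. Counts of members called lower in ICH+PTE than in ICH (19) ranged from 18 to 21 over all alternatives and were 19 whichever library was left out. Members called higher in ICH+PTE than in ICH (3) came to 2 to 4, and those higher in ICH+PTE than in sham (8) to 6 to 9. The smaller counts moved. The 1 member lower in ICH than in sham became 2 with quantile normalization or without the trend, 3 with array weights or without haemoglobin and mitochondrially encoded genes, and 1 to 2 with a library left out. The 3 members lower in ICH+PTE than in sham became 1 with all genes above 0 tested and 0 to 3 with a library left out. Of the other adhesion genes, the 7 higher in ICH+PTE than in ICH became 14 without haemoglobin and mitochondrially encoded genes, the 41 higher in ICH+PTE than in sham ranged from 23 to 44 with a library left out, and the 8 lower became 5 without library 1 of each group. Over all genes, the 1736 called higher in ICH+PTE than in sham became 1021 without sham 3, and the 1867 called lower became 2942 on TPM. The cause of these shifts was not tested.

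Differences that changed sign were all uncalled on both sides. With 1 library left out, Itga3 ranged from -0.13 to 0.053 in ICH minus sham (above 0 without ICH 2). In ICH+PTE minus sham, Itgb5 ranged from -0.50 to 0.080 and Selplg from -0.40 to 0.033 (both above 0 without ICH+PTE 1), and Itgb4 from -0.34 to 0.071 (above 0 without sham 1). Without library 1 of each group these 3 were at 0.11, 0.0016 and 0.14, and Itgb4 was at 0.063 with array weights. For ICH+PTE minus ICH, Itga7 was at 0.065 without haemoglobin and mitochondrially encoded genes.

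Same-numbered libraries of different groups correlated between 0.0031 and 0.25 in their deviations from the group means, so all such pairs were above 0. Libraries of different number correlated between -0.30 and 0.19. Not every same-numbered pair was above 0.1, and the numbers were not taken to pair the mice. Whether same-numbered libraries share a batch or dissection was not tested. With the replicate block, 20 members were higher in ICH than in sham and 1 lower, 3 higher and 19 lower in ICH+PTE than in ICH, and 9 higher and 3 lower in ICH+PTE than in sham, the added one being Itgav (adjusted p = 0.0344, beside 0.0980). No other call of a member changed under it. With 3 mice a group and no counts, differences of members under 1 FPKM are the least certain. With Itgad among the partners of beta2, an alternative chosen after seeing the data, the difference in the share of Itgam was 10.46 percentage points in ICH+PTE against ICH, beside 13.1 without it, and -1.28 in ICH+PTE against sham, beside 1.10, where the groups overlapped both times.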
